A study of Mus musculus with 8 samples.

Results

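The expression of 39 interferon-stimulated genes was compared in whole lung between mice that over-express the transcription factor Fra-2 and wild-type mice. The genes were given as a list of names, and each was read by the brightest array spot that carries its symbol. All 39 were measured, among 20863 genes in all. They were split into 30 genes led by type I interferon and 9 led by interferon-gamma, although many of them answer to both. The labels give 4 wild-type (WT) mice and 4 mice of genotype Fra-2 over-expressing (TG). All 8 were of the C57BL/6 background and 8 weeks old, with no treatment. Each mouse was measured on 1 single-colour Agilent array of whole-lung total RNA. The labels do not name the promoter that drives the transgene or the cells it is active in. Levels are given as log2 of the normalised intensity, and differences as TG minus WT with the standard error (SE) of the limma fit.

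Interferons are secreted proteins that warn cells of infection. Type I interferons (the alpha and beta forms) bind the receptor of Ifnar1 and Ifnar2, after which a complex that holds Stat2 and Irf9 switches on genes with an interferon-stimulated response element in their promoters. Interferon-gamma, made chiefly by natural killer and T cells, binds the receptor of Ifngr1 and Ifngr2 and acts on genes with gamma-activated sites. The products of the induced genes sense foreign RNA and DNA, block viral translation and replication, or attack the vacuoles in which microbes live. Lung epithelium, endothelium and macrophages all run this programme, and low interferon tone keeps it partly active in healthy tissue.

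Fosl2, which encodes Fra-2, was read by 2 spots. The brighter one differed by -0.75 (exact permutation p = 0.0571, two-sided), with levels of 10.12 to 11.01 in WT and 9.38 to 10.63 in TG. The dimmer one differed by 2.45 (exact permutation p = 0.0286), with levels of 3.44 to 5.58 in WT and 6.35 to 7.85 in TG. The spots therefore do not check the genotype labels together. Signal at or under the median of all spots, 4.74, was treated as dim, and the WT mean of that second spot (4.52) lay under it, so its difference is not read as a fold. Mice WT 4 and TG 4 stood further from their groups than the others (mean correlation with the other 3 arrays of the group 0.966 and 0.971, against 0.973 to 0.975). The lung marker Ager, of alveolar type 1 cells, was present in all 8 mice (13.01 to 14.07).

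None of the 39 interferon-stimulated genes passed the test. At an adjusted p under 0.05 by limma, 0 were higher and 0 lower, beside 0.216% of all genes tested (45 of 20863), and the lowest adjusted p among them was 0.440. With an unadjusted limma p under 0.05 there were 3 of 39, beside 9.15% of all genes. Of these, 1 difference was positive (Gbp2, beside 5.33% of all genes) and 2 were negative (Isg20 and Oas2, beside 3.82%). The 4 TG values lay apart from the 4 WT values in 1 of 39, Isg20, beside 6.53% of all genes in either direction and 2.54% in its own, lower in TG. A difference of at least 1 in size was found in 2 of 39, Oas2 and Mx1 (the latter with a WT mean under the level for dim signal), beside 2.24% of all genes. Differences were positive in 23 of 39, beside 52.4% of all genes. Among the 38 members above the level for dim signal they were positive in 22, beside 52.8% of such genes. The median difference was 0.06 over the type I members (18 positive, 12 negative) and 0.05 over the interferon-gamma members (5 positive, 4 negative), beside 0.01 over all genes. With 1 mouse left out, the type I median ran from -0.03 to 0.23, and its sign turned without WT 1 (-0.02), TG 3 (-0.03) or TG 4 (-0.03). The interferon-gamma median ran from -0.20 to 0.16, and its sign turned without WT 4 (-0.02) or TG 2 (-0.20), and also without both mice numbered 4 (-0.09).

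The confidence intervals give the range of changes that the values allow, per gene and not adjusted for the number of genes. The 95% interval lay wholly between -1 and 1, a 2-fold change in either direction, for 23 of the 30 type I members and 5 of the 9 interferon-gamma members. The narrowest were those of Ifi35 (-0.15 to 0.43) and Isg20 (-0.67 to -0.07). The widest was that of Mx1 (-0.87 to 2.91). A p that misses the threshold does not show that the groups were alike.

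**Figure D1:**
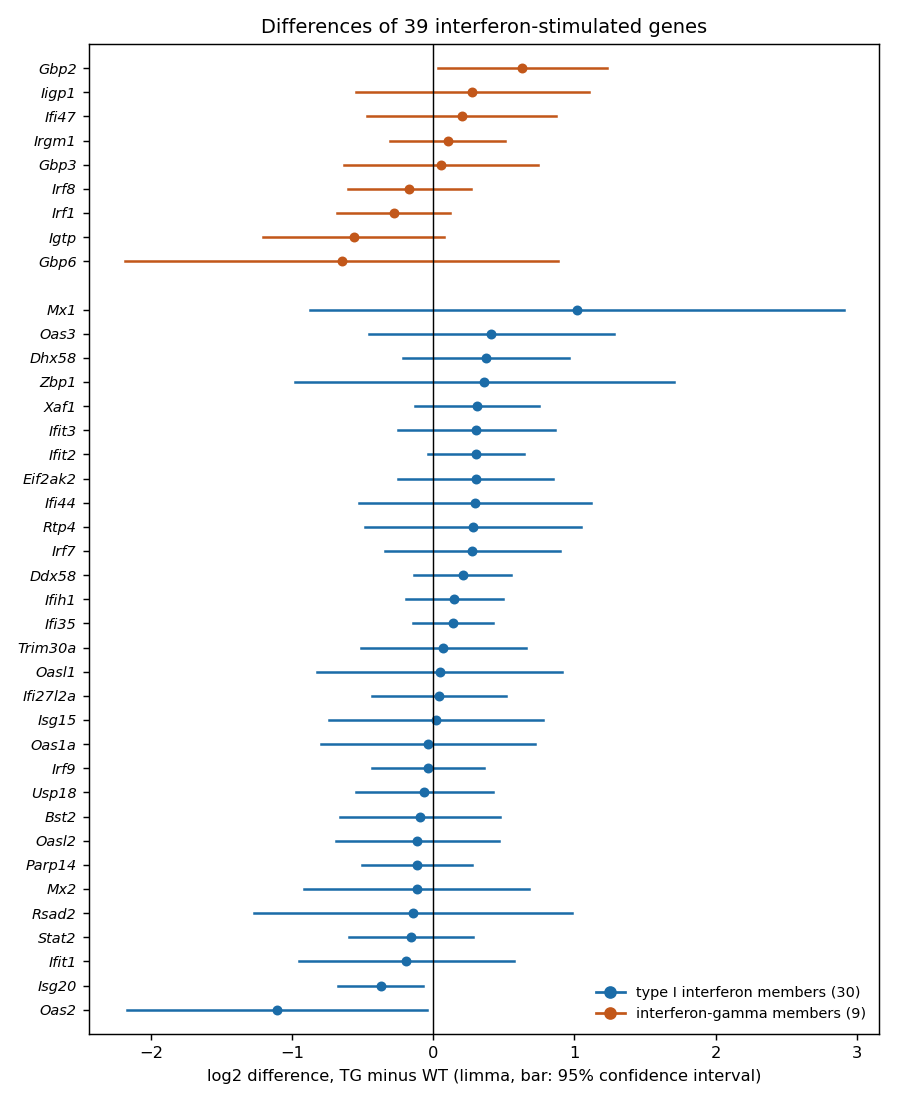
Difference of each of the 39 members, TG minus WT, on the log2 scale (horizontal axis), with points for the limma estimate and bars for its 95% confidence interval (n = 4 mice a group). The bars of Gbp2, Isg20 and Oas2 miss 0, those of the other 36 members cross it, and 0 of 39 passed after adjustment over all genes.

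Promoter letters were read for what the members share apart from their names. RefSeq promoter windows (build GRCm38.p6, 250 bases before to 50 after the start of the gene) were found for 28 of the 39 members. Windows for Oas2, Mx1, Mx2, Usp18, Ifi27l2a, Zbp1, Dhx58, Rtp4, Parp14, Gbp6 and Iigp1 were not used here. The core of the interferon-stimulated response element was searched as GAAA, any 2 bases and GAAA again, and the gamma-activated site as TTCNNNGAA, on both strands. The first was found in 16 of 28 members (57.1%), beside 3.99% of 27025 genes with a window. The second was found in 9 of 28 (32.1%), beside 9.55% of genes. Matches of the first kind were present in 12 of 21 type I members and in 4 of 7 interferon-gamma members. A match is only a description of the letters and not a proven site. Shown are stretches of 120 bases, 5′ to 3′ on the strand of the gene and ending before its start, for 6 members whose values are described below. Matches are in capitals, and overlapping matches run together.
Isg15 (chr4:156200827-156200946, minus strand): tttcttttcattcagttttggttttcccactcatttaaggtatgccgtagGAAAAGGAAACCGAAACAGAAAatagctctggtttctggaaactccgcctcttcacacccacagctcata
Ifit1 (chr19:34640739-34640858, plus strand): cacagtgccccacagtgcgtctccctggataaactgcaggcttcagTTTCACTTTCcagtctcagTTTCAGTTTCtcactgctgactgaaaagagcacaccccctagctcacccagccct
Oas1a (chr5:120907526-120907645, minus strand): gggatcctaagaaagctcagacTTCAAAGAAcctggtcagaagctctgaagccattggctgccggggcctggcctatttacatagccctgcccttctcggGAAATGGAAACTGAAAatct
Isg20 (chr7:78913295-78913414, plus strand): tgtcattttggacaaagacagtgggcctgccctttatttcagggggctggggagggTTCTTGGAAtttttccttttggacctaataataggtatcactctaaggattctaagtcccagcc
Gbp2 (chr3:142620543-142620662, plus strand): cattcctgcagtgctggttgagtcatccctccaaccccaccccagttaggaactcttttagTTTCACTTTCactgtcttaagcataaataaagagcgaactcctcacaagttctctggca
Igtp (chr11:58199436-58199555, plus strand): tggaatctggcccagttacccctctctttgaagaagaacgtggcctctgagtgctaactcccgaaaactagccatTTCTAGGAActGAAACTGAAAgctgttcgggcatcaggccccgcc
Isg15 holds 3 overlapping cores 66 to 78 bases before its start, and Ifit1 holds 2, read on the other strand, at 85 and 104 bases. In Igtp a gamma-activated site (45 bases before the start) stands next to a response element core (34 bases). Isg20 holds a gamma-activated site alone, 73 bases before its start.

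The ligands at the head of the pathway gave little signal. Of 16 measured interferon genes, 10 had a mean under the level for dim signal, and 0 passed the test (limma; 2 at an unadjusted p under 0.05). Ifng, the gene of interferon-gamma, had levels of 5.69, 5.35, 5.53 and 4.96 in WT mice 1 to 4 and of 4.37, 4.82, 4.71 and 4.86 in TG mice 1 to 4. All 4 TG values lay below all 4 WT values, close to or under the level for dim signal. The difference was -0.69 (SE 0.19) and did not pass (limma adjusted p = 0.304). An exact permutation test, two-sided, gave 0.0286, the smallest p that 4 against 4 allows. Natural killer cells, a main source of interferon-gamma, had lower markers in the same TG mice. Of 10 markers 4 were called lower, beside 0.216% of all genes called in either direction. In 9 of 10 the groups did not overlap, all lower in TG, beside 2.54% of all genes. The summed marker level of that list, the log2 of its summed intensities, was 13.12 to 13.91 in WT and 10.69 to 11.34 in TG. In WT this sum rested mostly on Gzma, the brightest marker there (12.52 to 13.49 in WT, 8.26 to 9.79 in TG). Markers of T cells, the other chief source, went the other way. Of 9 measured 0 were called, and in 7 the groups did not overlap, all higher in TG, beside 3.99% of all genes. The part of either cell type in the Ifng values was not tested. In whole lung a change in the number of cells of a type and in RNA per cell cannot be told apart. Ifnb1, the beta interferon, lay under the level for dim signal in all 8 mice (2.67 to 3.78 in WT, 3.09 to 3.88 in TG). Ifna16, an alpha interferon, also stayed under it in all 8 (3.03 ± 0.52 in WT and 3.98 ± 0.34 in TG; SD, n = 4 each; limma adjusted p = 0.350), so no fold is given.

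The receptors and kinases that pass the signal on did not differ past the threshold either: 0 of 10 measured (limma; 0 at an unadjusted p under 0.05), with differences from -0.39 to 0.26. Ifnar1, the signalling chain of the type I receptor, had levels of 10.32, 10.26, 10.38 and 10.15 in WT and of 10.76, 10.50, 10.39 and 10.40 in TG. These groups do not overlap, but the closest values differ by little, and the difference was 0.24 (SE 0.13, limma adjusted p = 0.623). Ifngr2, of the gamma receptor, differed by 0.26 (SE 0.16), and Ifnlr1, of the lambda interferon receptor, by -0.39 (SE 0.18). Of 16 sensors and adaptors upstream of interferon, 0 passed (0 at an unadjusted p under 0.05). Tbk1, the kinase that activates Irf3, differed by 0.35 (SE 0.16) and Aim2, a DNA sensor, by 0.32 (SE 0.18). Of 8 brakes on the pathway 0 passed (1 at an unadjusted p under 0.05), with Rnf125, a ubiquitin ligase that targets RNA sensors, at 0.61 (SE 0.26). Its 4 WT values spread from 8.54 to 9.71 and its 4 TG values from 9.90 to 10.08. Without WT 4, the lowest, the difference of Rnf125 was 0.34.

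The transcription factors among the members showed no called change. Irf7, which amplifies the type I response, had levels of 6.71, 7.00, 6.47 and 5.94 in WT mice 1 to 4 and of 6.63, 6.41, 7.31 and 6.87 in TG mice 1 to 4. The groups overlap, with the highest value in TG 3 and the lowest in WT 4. The difference was 0.28 (SE 0.27, limma adjusted p = 0.795). Stat2, part of the complex that binds the response element, had levels of 10.42, 10.74, 10.62 and 11.10 in WT and of 10.19, 10.56, 10.70 and 10.79 in TG. Its difference was -0.16 (SE 0.19, limma adjusted p = 0.837), and mouse 1 was the lowest of its group in both. Irf9, also part of that complex, differed by -0.04 (SE 0.17). Irf1, a factor induced by interferon-gamma, had levels of 12.97, 13.01, 12.96 and 12.86 in WT and of 12.42, 13.09, 12.78 and 12.38 in TG. The WT mice lay close together (SD 0.06) and the TG mice did not (SD 0.33), so that TG 2 stood above all WT mice and the other TG mice below them. The difference was -0.28 (SE 0.17, limma adjusted p = 0.674). Irf8, a factor of macrophages and dendritic cells, differed by -0.17 (SE 0.19).

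The ubiquitin-like arm of the response showed no called difference. Isg15, a ubiquitin-like protein that is attached to new proteins, had levels of 10.57, 11.35, 10.66 and 11.56 in WT and of 10.35, 10.91, 11.56 and 11.40 in TG. Each group held low and high mice, with 11.03 ± 0.50 in WT and 11.05 ± 0.55 in TG on average (SD, n = 4 in either group). The difference was 0.02 (SE 0.33, limma adjusted p = 0.993). The 95% interval of that difference, -0.74 to 0.78, still allows a change of some size in either direction. A dimmer spot of Isg15 gave 0.37 (SE 0.40). Usp18, the protease that removes Isg15 and damps the type I receptor, differed by -0.06 (SE 0.21).

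Isg20, an exonuclease that degrades RNA, was the member with the smallest p. It had levels of 12.84, 13.20, 12.90 and 12.93 in WT and of 12.60, 12.44, 12.57 and 12.77 in TG. All TG values lay below all WT values, by a narrow margin. The difference was -0.37 (SE 0.13), 1.30-fold, and did not pass (limma adjusted p = 0.440). An exact permutation test gave p = 0.0286, two-sided. A dimmer spot of Isg20 gave -0.35 (exact permutation p = 0.0286), also with no overlap.

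The oligoadenylate synthetases, which make the messenger that activates RNase L, showed no called change. Of 8 measured genes with an Oas symbol, members and others, 4 had positive and 4 negative differences. Among the positive ones, Oas1g lay under the level for dim signal in all 8 mice and Oas3 had a mean under it. Oas2 had levels of 7.70, 8.42, 8.72 and 9.39 in WT and of 6.42, 7.24, 7.94 and 8.20 in TG. WT 1 lay within the TG values and the other WT mice above them. The difference was -1.11 (SE 0.46), 2.15-fold, the largest of the 39 by size, and did not pass (limma adjusted p = 0.524; exact permutation p = 0.114). Over the alternatives it ran from -1.39 to -0.76. Oas1a differed by -0.03 (SE 0.33), Oasl2 by -0.11 (SE 0.25), and Oasl1, which restrains Irf7 translation, by 0.05 (SE 0.38). The WT mean of Oas3 (4.51) lay under the level for dim signal, as did 3 of its 8 values, so no fold is given.

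Ifit proteins bind viral RNA that lacks the marks of the host. Ifit1 had levels of 8.00, 9.18, 8.11 and 8.70 in WT and of 7.61, 8.37, 8.81 and 8.42 in TG, a difference of -0.19 (SE 0.33, limma adjusted p = 0.893). Ifit2 had levels of 7.81, 7.82, 7.99 and 7.65 in WT and of 8.03, 8.26, 8.35 and 7.84 in TG. The TG values of Ifit2 were the higher ones except in TG 4, and the difference was 0.30 (SE 0.15, limma adjusted p = 0.597; exact permutation p = 0.0571). Ifit3 differed by 0.30 (SE 0.24). Near-copies of Ifit3, Oas1a, Gbp6 and Trim30a exist in the mouse, so a spot may read more than the gene it is named for.

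Of the members that sense RNA or DNA, Ddx58, Dhx58, Ifih1, Eif2ak2 and Zbp1 were not called. Ddx58, which encodes the RNA sensor RIG-I, had levels of 10.27, 10.51, 10.10 and 9.96 in WT and of 10.33, 10.43, 10.59 and 10.31 in TG, a difference of 0.21 (SE 0.15, limma adjusted p = 0.719). Dhx58, a regulator of RIG-I and of the sensor encoded by Ifih1, had levels of 6.74, 7.49, 7.08 and 7.27 in WT and of 6.88, 7.52, 7.83 and 7.86 in TG. Its difference was 0.38 (SE 0.26, limma adjusted p = 0.700), with mouse 1 the lowest of both groups. Ifih1 differed by 0.15 (SE 0.15; its dimmer spot gave -0.03), and Eif2ak2, the kinase that stops translation on double-stranded RNA, by 0.30 (SE 0.24). Zbp1, a sensor of Z-form nucleic acid that starts necroptosis, had levels of 6.44, 7.42, 6.40 and 7.36 in WT and of 6.29, 6.53, 7.24 and 9.01 in TG. TG 4 alone stood above all WT mice, and the difference was 0.36 (SE 0.59, limma adjusted p = 0.886). Over the alternatives the Zbp1 difference ran from -0.22 (without TG 4) to 0.69 (without TG 1), and without both mice numbered 4 it was -0.07.

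Among effectors that act on viral entry and budding, Mx1 had levels of 2.52, 5.73, 4.63 and 5.89 in WT and of 4.87, 5.15, 5.48 and 7.35 in TG. The values overlap, 2 WT values lay under the level for dim signal, and the difference of 1.02 (SE 0.82, limma adjusted p = 0.748) was smaller than the SD of WT (1.55). Without WT 1 the difference of Mx1 was 0.29 and without TG 4 it was 0.47. Its WT mean, 4.70, lay under the level for dim signal, so no fold is given. Most laboratory strains, C57BL/6 among them, carry a defective Mx1. Mx2 differed by -0.12 (SE 0.35) and Bst2, which tethers budding virus, by -0.10 (SE 0.25). Rsad2, which encodes viperin, differed by -0.14 (SE 0.49) with TG mice from 6.46 to 8.69. Xaf1, which promotes cell death, had levels of 10.21, 10.76, 10.39 and 10.31 in WT and of 10.30, 10.72, 10.98 and 10.92 in TG, a difference of 0.31 (SE 0.19, limma adjusted p = 0.677). The remaining type I members, Ifi35, Ifi44, Ifi27l2a, Rtp4, Trim30a and Parp14, differed by -0.12 (Parp14) to 0.29 (Ifi44).

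**Figure D2:**
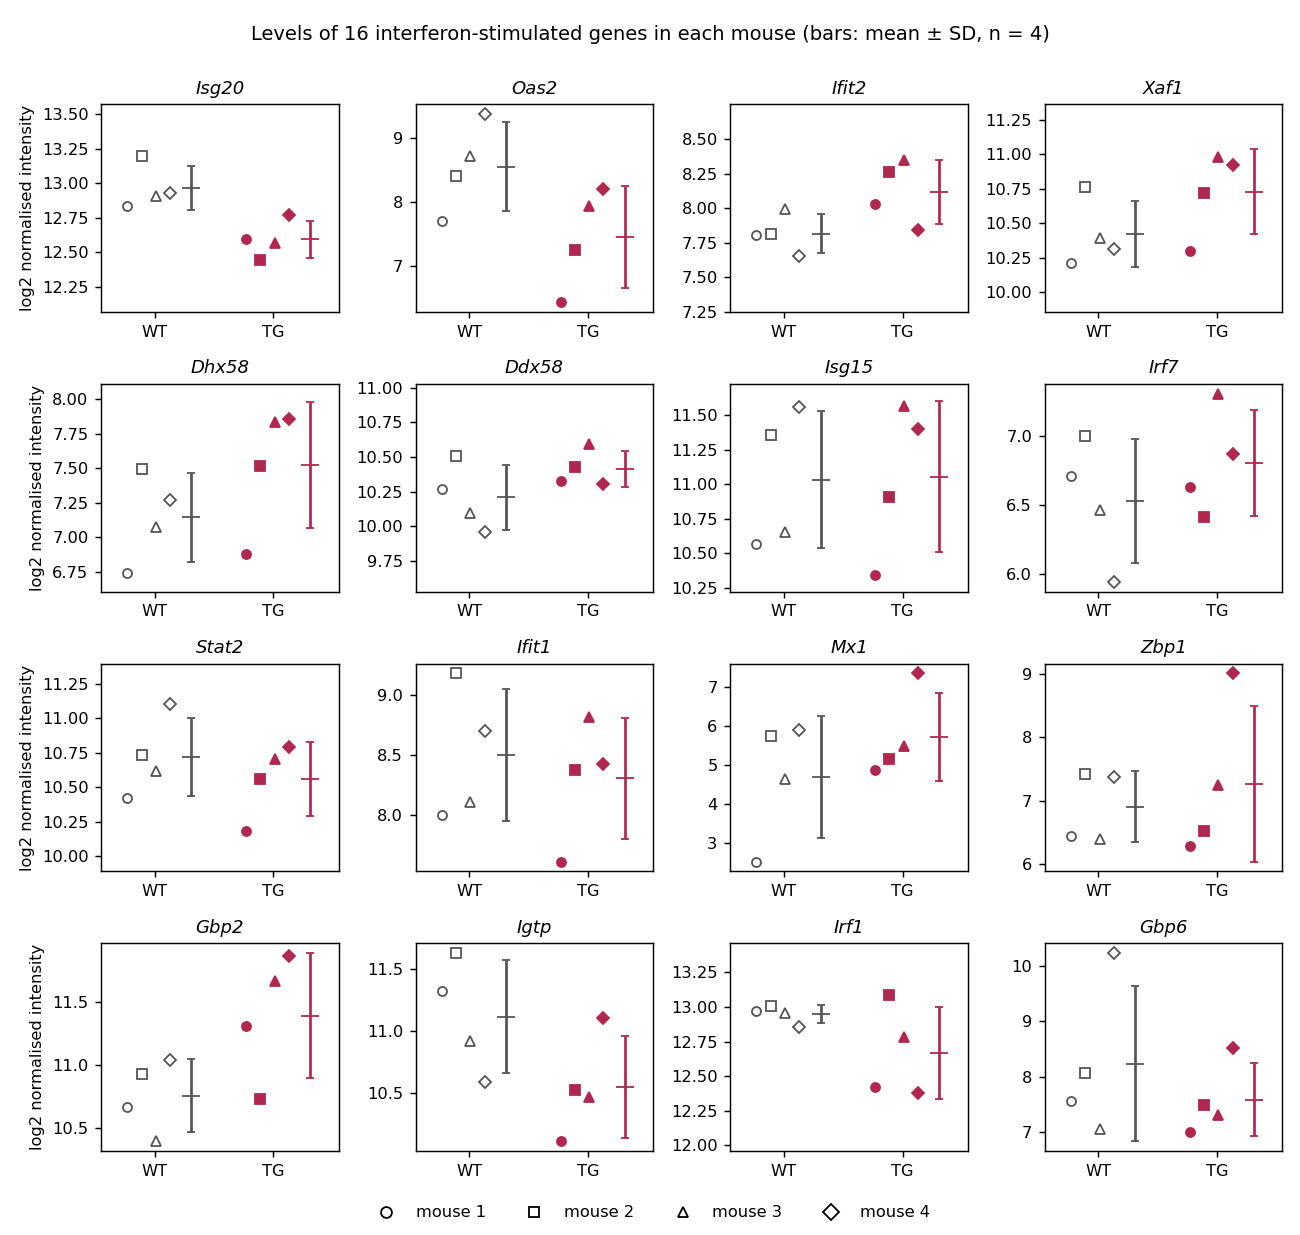
Log2 normalised intensity (vertical axes, each panel with its own range) of 16 members in each WT and TG mouse, with the mouse number given by the symbol and bars for the mean ± SD (n = 4 a group). WT and TG values overlap in every panel except Isg20, and mouse 1 of each group is often among the lowest.

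The interferon-gamma members hold the GTPases that attack vacuoles of microbes, and these differed in both directions. Gbp2, a guanylate-binding protein, had levels of 10.67, 10.93, 10.40 and 11.04 in WT and of 11.31, 10.73, 11.66 and 11.86 in TG. TG 2 lay among the WT mice and the other TG mice above them. The difference was 0.63 (SE 0.26), 1.55-fold, and did not pass (limma adjusted p = 0.520; exact permutation p = 0.0857). Gbp3 differed by 0.05 (SE 0.30). Gbp6 had levels of 7.56, 8.06, 7.06 and 10.24 in WT and of 7.01, 7.49, 7.30 and 8.53 in TG, highest in mouse 4 of each group (difference -0.65, SE 0.67, limma adjusted p = 0.805). That value rested on WT 4: without it the difference of Gbp6 was 0.02. This spot carries the older platform symbol Mpa2l. A second Mpa2l spot gave 0.17, and the spot that the platform itself calls Gbp6 gave -0.67 with both group means under the level for dim signal (exact permutation p = 0.0571).

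Igtp, an immunity-related GTPase, had levels of 11.32, 11.63, 10.92 and 10.59 in WT and of 10.11, 10.52, 10.46 and 11.10 in TG. TG 4 lay among the WT mice and the other TG mice below them. The difference was -0.57 (SE 0.28), 1.48-fold, and did not pass (limma adjusted p = 0.596; exact permutation p = 0.143). The array reads Igtp with 10 spots, and all 10 gave negative differences, from -0.74 to -0.57 (limma p adjusted over all named spots from 0.490 to 0.619). These spots measure the same 8 RNA samples and add no mice. Irgm2, which is no member but lies next to Igtp on chromosome 11 with 0 genes between them in GRCm38.p6, had 10.88 ± 0.21 in WT and 10.21 ± 0.44 in TG (SD, n = 4 each). Its groups did not overlap, and the difference was -0.67 (SE 0.23, limma adjusted p = 0.436). Of the other GTPases of this family Irgm1 differed by 0.10 (SE 0.18), Iigp1 by 0.28 (SE 0.36), Ifi47 by 0.20 (SE 0.29), Tgtp1 by -0.14 (SE 0.26) and Tgtp2 by -0.68 (SE 0.33). In the families as a whole, 8 of 10 measured Gbp genes had positive differences, and 3 of 7 immunity-related GTPases did, beside 52.4% of all genes. The families were singled out after their values were seen, and 0 of the 17 genes passed.

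Induced genes outside the members gave the same count of calls. Of 38 further type I induced genes 0 passed (limma; 2 at an unadjusted p under 0.05, beside 9.15% of all genes). Differences were positive in 30 of 38, beside 52.4% of all genes, with a median of 0.12 beside 0.01. Ifitm6, a relative of the antiviral Ifitm proteins that is high in monocytes and neutrophils, had levels of 8.03, 8.94, 8.99 and 7.71 in WT and of 9.02, 9.49, 9.52 and 9.94 in TG. All TG values lay above all WT values, and the difference was 1.07 (SE 0.33, limma adjusted p = 0.370). Samd9l, a restriction factor, differed by 0.31 (SE 0.13) and Slfn8 by 0.68 (SE 0.31). Of 30 further interferon-gamma induced genes 0 passed (3 at an unadjusted p under 0.05, beside 9.15% of all genes), with a median of 0.08. Of these 30, 26 had a mean above the level for dim signal. Cxcl11 lay at or next to the top of the intensity scale in all 8 mice (15.92 to 16), so its lack of a call is not read. Gbp4 differed by 0.86 (SE 0.37) and Gbp9 by 0.73 (SE 0.32). In all, 0 of 117 measured interferon pathway genes outside the members passed (8 at an unadjusted p under 0.05, beside 9.15% of all genes).

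The members varied between mice of 1 group. The median SD of the members was 0.37 in WT and 0.40 in TG, beside 0.25 and 0.20 over the 14312 genes above the level for dim signal. The type I members were high and low in the same mice. WT 2 held the highest WT value in 18 of 30 (22.7% of genes above the level for dim signal), and WT 1 the lowest in 19 of 30 (21.3%). Among TG mice, TG 3 held the highest value in 19 of 30 (21.3%) and TG 4 in the other 11 (33.4%), and TG 1 held the lowest in 22 of 30 (21.5%). The genes of the list share the 8 RNA samples, so these counts describe the mice and carry no test.

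**Figure D3:**
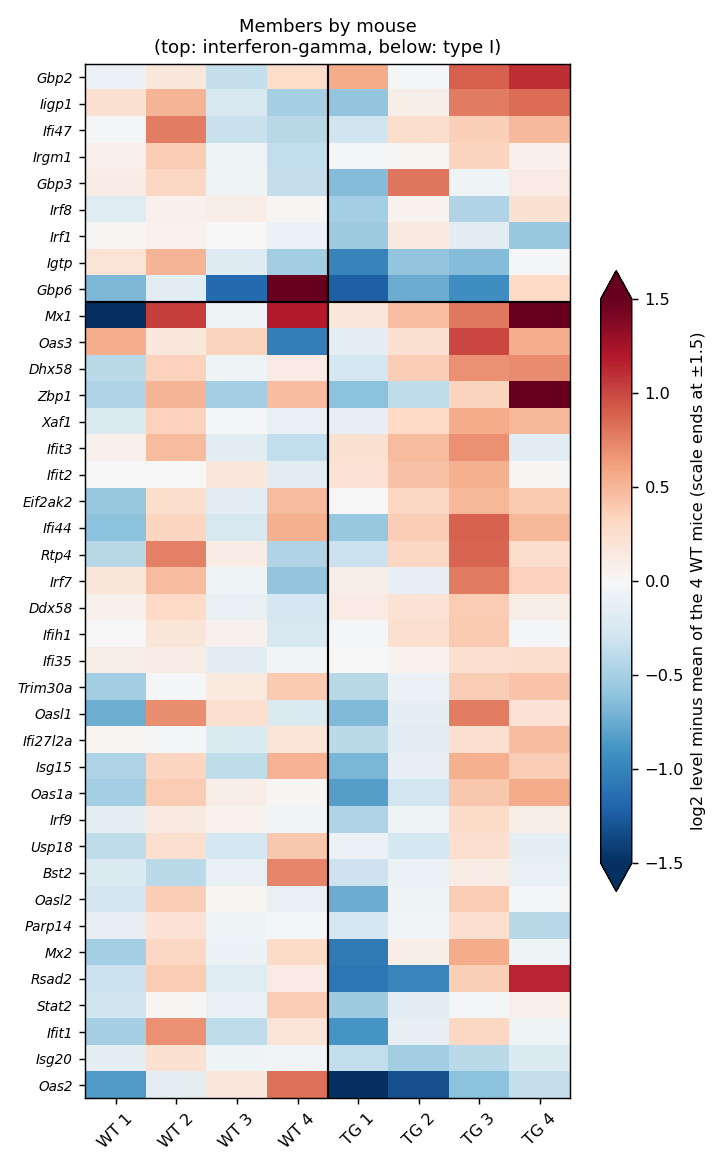
Log2 level of the 39 members in each mouse minus the mean of the 4 WT mice, with red for higher and blue for lower (scale ends at ±1.5; columns are mice, rows are genes ordered by difference). The column of TG 1 is mostly blue and that of TG 3 mostly red among the type I members, although both are TG mice.

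The median deviation of the type I members from their 8-mouse mean was -0.27, 0.27, -0.09 and 0.09 in WT mice 1 to 4 and -0.43, -0.03, 0.36 and 0.19 in TG mice 1 to 4. Both the lowest and the highest of these 8 values were thus TG mice, and the group means were 0.00 and 0.02. The interferon-gamma members gave 0.02, 0.28, -0.12 and -0.24 in WT and -0.42, -0.03, -0.03 and 0.31 in TG. TG 1 was the lowest and WT 2 and TG 4 the highest. Induced genes outside the members had their highest WT value in WT 2 as well, in 22 of 38 further type I and 17 of 30 further interferon-gamma induced genes. TG 1 held the lowest TG value in 24 of 38 and 20 of 30. Over all genes above the level for dim signal the medians stayed from -0.01 to 0.02 in all 8 mice.

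**Figure D4:**
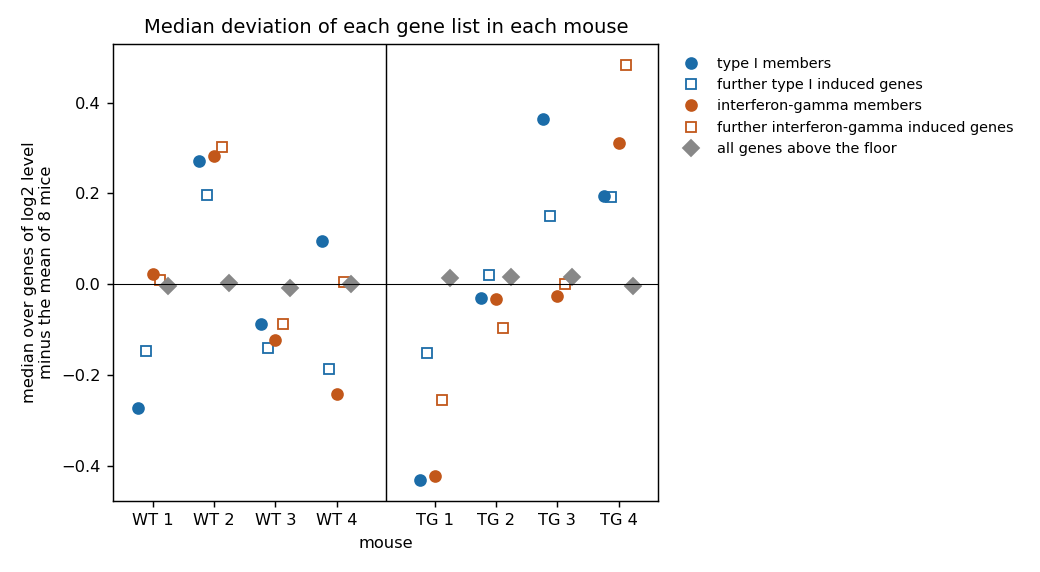
Median over the genes of a list of the log2 level minus the gene's mean over 8 mice (vertical axis) in each mouse (horizontal axis), for the members (filled circles), further induced genes (open squares) and all genes above the level for dim signal (grey diamonds). TG 1 lies lowest in all 4 interferon lists among TG mice, from -0.43 to -0.15, and WT 2 highest among WT mice, from 0.20 to 0.30.

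Markers of other cell types were read in the same mice. T cell markers had 0 of 9 called, beside 0.216% of all genes. In 7 of 9 the groups did not overlap, all higher in TG, beside 3.99% of all genes. The summed level of the T cell markers was 11.23 to 11.93 in WT and 12.26 to 12.77 in TG. Cd3d, of the T cell receptor complex, differed by 1.26 (SE 0.30, limma adjusted p = 0.219), and Ncr1, a natural killer cell receptor, was called lower (-2.12, SE 0.24, limma adjusted p = 0.0150). The difference of Ncr1 was no longer called without WT 2, WT 3, WT 4, TG 1 or TG 4 (adjusted p from 0.0521 to 0.0725). Among the other lists, alveolar macrophages had 1 of 8 called lower (Marco, a scavenger receptor, -2.08, SE 0.22, limma adjusted p = 0.0105). The other 7 had positive differences, from 0.05 (Pparg) to 0.57 (Fabp4), none of them called. Lists of B cells, conventional dendritic cells, monocytes, neutrophils, endothelium and lung epithelium had 0 called by limma. At an unadjusted p under 0.05 they had 1 of 6, 4 of 8, 2 of 7, 0 of 7, 1 of 8 and 0 of 9, beside 9.15% of all genes. In 3 of 8 conventional dendritic cell markers (Itgax, Cd209a and Ccr7) the groups did not overlap, higher in TG, beside 3.99% of all genes. Differences of that list were positive in 4 and negative in 4, with Clec9a at -0.83 (SE 0.33). Groups also did not overlap in 1 of 7 monocyte markers, lower in TG (beside 2.54%), and 1 of 8 endothelial markers, higher in TG. Of the lung epithelium markers, Sftpc, Scgb1a1 and Sftpd lay at or next to the top of the intensity scale in all 8 mice. Sftpa1 and Sftpb lay close to it. Values held at that limit cannot show a difference, so the lack of calls for these markers is not read. Ager, Hopx, Foxj1 and Epcam lay lower on the scale, with differences from -0.29 (Foxj1) to -0.10 (Hopx). Plasmacytoid dendritic cells are strong makers of type I interferon. Their 8 markers had 0 calls (limma; 0 at an unadjusted p under 0.05), and Siglech differed by -0.25 (SE 0.20). Among TG mice, TG 4 held the highest value in 33.4% and the lowest in 38.8% of genes above the level for dim signal. TG 4, the highest TG mouse for the interferon-gamma members, also had the highest summed levels among TG mice of several marker lists. These were B cells (14.48, against 13.28 to 13.62 in the other TG mice), conventional dendritic cells (13.62, against 12.57 to 12.85) and T cells (12.77, against 12.26 to 12.33). Natural killer cells (11.34, against 10.69 to 10.76), monocytes (14.67, against 14.40 to 14.61) and alveolar macrophages (16.68, against 16.11 to 16.61) were the others. Such sums rest mostly on the brightest markers, and Chil3, of alveolar macrophages, stood at 16 in TG 4, the top of the scale. By the median deviation of the markers, TG 1 was the highest TG mouse for alveolar macrophages (0.32, against 0.09 in TG 4). TG 4 was then the lowest TG mouse for monocytes (-0.12). TG 4 had the lowest summed level among TG mice in other lists. These were plasmacytoid dendritic cells (14.89, against 15.49 to 15.58), endothelium (17.00, against 17.20 to 17.35) and lung epithelium (18.40, against 18.52 to 18.53). By the median deviation, TG 4 was the highest TG mouse for plasmacytoid dendritic cells (0.12) and the lowest for endothelium (-0.12) and lung epithelium (-0.07). The part of these cells in the member values was not tested.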

How the data were processed

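Whole-lung RNA of 8 mice was labelled with Cy5 and hybridised to single-colour Agilent arrays, per the labels. The authors deposited linear intensity values for 62976 spots, on arrays that share 1 distribution (median 26.6 and mean 1203 on each). R 2.15.1 and limma 3.14.4 are listed in the submitters' processing notes, and the background correction is not given in the sources used here. Platform annotation named 31465 spots with 1 symbol each, several for 0, and left 31511 without a name. Matching RefSeq accessions brought symbols up to GRCm38.p6 (29050 spots matched, 2933 symbols replaced), giving 20863 genes. The spot with the highest mean over 8 arrays stood for a gene. Of 11 members with several spots above the level for dim signal, 8 had all spots in 1 direction (72.7%, beside 65.1% of such genes). Dimmer spots not given above differed by 0.31 (Ddx58), 0.53 (Xaf1), 0.45 (Iigp1), -0.04 (Irgm1), -0.11 (Oas1a) and 0.03 (Zbp1). A second Irf1 spot, with both group means under the level for dim signal (3.89 in WT, 4.18 in TG), gave 0.29, opposite in sign to the brighter spot. The log2 intensity, with no offset, was fitted with limma 3.58.1 in R 4.3.3 (lmFit and eBayes, group as the only term), and p-values were adjusted by Benjamini-Hochberg over all genes with a threshold of 0.05. The fit was tested on simulated data. Exact permutation tests were two-sided, with 0.0286 as the smallest p. The number of arrays limits the precision.

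The members and lists were chosen with earlier results of these data known. All members are accounted for. Given by mouse are the 6 type I and 4 interferon-gamma members with the smallest p, besides Isg15, Irf7, Stat2, Ifit1, Mx1 and Zbp1, and up to 3 genes of each other pathway list. Igtp spots, families and neighbours were singled out after values were seen. The level for dim signal is the median of all spots. Alternatives were other scalings, offsets of 16 and 32, a filter on dim genes, other spot rules, a trended robust variance, the replicate block, a threshold of 0.1 and mice left out. Figures were drawn with matplotlib 3.10.9.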

Additional observations from a re-analysis of the deposited data

Results flagged for a closer look

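Of 61 genes examined in 2 groups each (122 sets of 4 mice), 5 held a mouse far from the other 3 of its group by Dixon's criterion, and 0 of these were among the 39 members. Chance alone marks about 1 in 20. Rnf125 stood at 8.54 in WT 4, with the other WT mice at 9.52 to 9.71. Pias1, a brake on interferon signalling, stood at 10.85 in TG 4, against 11.16 to 11.18 in the other TG mice. Ptpn11, a phosphatase, stood at 13.29 in WT 4, against 13.04 to 13.08. Gbp4 stood at 10.41 in TG 1, the mouse with the lowest type I members, against 11.21 to 11.36. Siglech stood at 14.32 in TG 4, against 15.04 to 15.17. The cause was not tested.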

How the results depend on the processing

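The count of 0 among the 39 members, and of 0 among the 117 other pathway genes, held under each of the 18 alternative fits and at a threshold of 0.1. The lowest adjusted p of any member in these fits was 0.153 (Oas2), and the members with an unadjusted p under 0.05 numbered 0 to 4. The sign of the difference held in 19 of the 39 members under every alternative and turned in 20, all of them uncalled. Both member medians moved by less than 1 SD between mice, pooled over WT and TG, in each alternative. The interferon-gamma median without TG 2 (-0.20) nevertheless moved by more than the SD within WT alone (0.23), and signs turned without some mice. The number of all genes past the threshold, 45, became 80 and 88 with offsets of 16 and 32, 71 with dim genes left out, 118 with a trended robust variance and 76 at a threshold of 0.1. It was 17 to 38 with 1 mouse left out and 17 without both mice numbered 4. With the replicate block it was 5, and the members stayed at 0. Deviations of same-numbered mice from the group means correlated at -0.01 to 0.05, beside -0.08 to 0.04 for mice of different numbers. A correlation over all genes cannot show whether same-numbered mice shared a batch, and the labels name none. The cause of these moves was not tested, apart from the fewer genes or mice. Repeating the scaling changed nothing, because the arrays already shared 1 distribution.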
